A study of Mus musculus with 12 samples.

Results

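Regulatory T cells (Tregs) that lacked the transketolase gene Tkt were compared between mice given dimethyl α-ketoglutarate (DMαKG) and mice given vehicle. The libraries were chosen by their labels, 6 of the 12 in the study, and all genes entered the comparison: 12903 of 17955 in the table had enough counts to be tested. The groups were Foxp3YFP-creTKTfl/fl mice with DMαKG in the drinking water (cKO DMαKG, replicates 1, 2 and 3) and the same genotype with vehicle (cKO vehicle, replicates 2, 3 and 4). Foxp3YFP-creTKT+/+ mice (WT) with DMαKG (replicates 1, 2 and 3) or vehicle (replicates 2, 3 and 4) served to ask whether the response depended on the genotype. All were C57BL/6 mice aged 7 weeks, and CD4+CD25+YFP+ cells were sorted from spleen and lymph node. Both genotypes carried Cre recombinase and yellow fluorescent protein driven from Foxp3, so that the floxed Tkt alleles of cKO mice were deleted in cells that express Foxp3. The supplement was given from pregnancy of the dams until the offspring were adult, so all tissues of these animals were exposed to it. With 3 mice in each group, p-values measure the spread between these mice.

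DMαKG is a cell-permeable ester of α-ketoglutarate, also called 2-oxoglutarate. α-Ketoglutarate is an intermediate of the tricarboxylic acid cycle and the cosubstrate of a large family of dioxygenases, among them the TET enzymes that oxidise methylated cytosine, the JmjC histone demethylases and the prolyl hydroxylases that mark HIF-1α for degradation. Transketolase connects glycolysis and the pentose phosphate pathway. Tregs depend on the transcription factor Foxp3 and restrain other T cells through CTLA-4, interleukin-10 and related molecules, and TET enzymes keep a regulatory region of the Foxp3 gene demethylated.

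Summed estimated counts were 1.57e+07 to 1.89e+07 per library. On the first principal component of log2 CPM (counts scaled to library size), which held 29% of the variance, the cKO DMαKG replicates 1, 2 and 3 lay at 20.2, 17.6 and 47 and the cKO vehicle replicates 2, 3 and 4 at -20, -6.3 and -32.8. The WT DMαKG replicates 1, 2 and 3 lay at 12.7, 21.4 and -29.7 and the WT vehicle replicates 2, 3 and 4 at -0.1, 2.8 and -32.9. The low end thus held libraries of both genotypes and both treatments. Replicate 3 of the cKO DMαKG group stood apart, and relative to the mean of all libraries its short transcripts lay at 0.167 and its long ones at -0.105 (medians of the shortest and longest of 3 equal classes, log2 CPM). The libraries of both genotypes also differed in Y-linked transcripts. Ddx3y encodes a helicase on the Y chromosome. In WT Tregs it stood at 140, 22.6 and 241 CPM with DMαKG and at 109, 0.0555 and 224 CPM with vehicle. It stood at 0.518, 155 and 0.509 CPM in cKO DMαKG Tregs and at 156, 219 and 190.2 CPM in cKO vehicle Tregs. The cKO DMαKG replicate 2 was therefore the treated cKO library that matched the vehicle libraries in Y-linked counts, and fold changes from it alone are given at many of the results. With it alone 28 of the 95 genes whose fold change was followed through other fits moved by over 1.5 times, 27 of them nearer to 0 and 1, Slc2a1, farther from it.

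The sorted cells carried Treg markers in all 6 libraries. Foxp3 stood at 433, 545 and 279.5 CPM in cKO DMαKG Tregs and at 412, 412 and 332 CPM in cKO vehicle Tregs. Il2ra, which encodes the CD25 antigen used in the sort, stood at 606, 613 and 467 CPM with DMαKG and 467, 639.8 and 776 CPM with vehicle. Cd4 lay between 644 to 786 CPM with DMαKG and between 717 to 786 CPM with vehicle, and Cd3e, a subunit of the T cell receptor complex, between 159 to 302 CPM with DMαKG and between 241 to 349 CPM with vehicle. The groups overlapped for each of these genes. Tkt, the deleted gene, stood at 37.8, 34.6 and 31.5 CPM in cKO DMαKG Tregs and 26.2, 37.2 and 41.8 CPM in cKO vehicle Tregs, so its residual level overlapped too. Foxp3 overlaps Ccdc22 in the genome, and the strand setting of the counting was not given in the sources used here, which leaves the origin of reads in such overlaps uncertain.

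No gene passed an edgeR adjusted p of 0.05: the count was 0 of 12903 (0%), and the smallest adjusted p was 0.0832. At an unadjusted p below 0.05 there were 2229 genes (17.3% of those tested), 955 higher with DMαKG (7.4%) and 1274 lower (9.87%). The 3 DMαKG libraries lay wholly above the 3 vehicle libraries for 1150 genes (8.91%) and wholly below them for 1570 (12.2%). Other tests gave calls: the DESeq2 Wald test called 389 of the 11649 genes to which it gave an adjusted p (3.34%; 140 higher and 249 lower), limma voom with sample quality weights called 450 of 12903 (3.49%; 222 higher and 228 lower), and 211 genes were called by both. Over all tested genes the median log2 fold change was 0.004 and the median standard error (SE) 0.183. Without WT DMαKG replicate 3, which is in neither cKO group but shares the estimate of spread, edgeR called 137 genes, and without cKO vehicle replicate 2 it called 10. When the Y-linked level was a covariate, edgeR gave 663 of 12903 genes at an unadjusted p below 0.05, against 2229 of 12903 without it. With that covariate 0 genes passed the adjusted threshold.

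In WT Tregs DMαKG gave 352 genes at an unadjusted edgeR p below 0.05 (2.73%) and 0 at an adjusted p below 0.05, while DESeq2 called 2 and voom 8. The contrast with the 17.3% in cKO depended on the tool: at an unadjusted p below 0.05 DESeq2 gave 2337 genes (18.1%) in cKO and 361 (2.8%) in WT, and voom 3036 (23.5%) in cKO and 2341 (18.1%) in WT. Whether the genotypes differed in their response was tested as an interaction, the log2 fold change in cKO minus that in WT. By edgeR it called 0 genes (0%; smallest adjusted p 0.955, with 470 genes, 3.64%, at an unadjusted p below 0.05), and DESeq2 and voom each called 1 gene. Values from WT are given beside those from cKO for part of the results. No difference between the genotypes in the response to DMαKG passed in edgeR.

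The gene that DESeq2 and voom called in the interaction was Ncoa7, a nuclear receptor coactivator gene with an interferon-inducible isoform. It stood at 104, 103 and 115 CPM in cKO DMαKG Tregs and at 152, 171 and 153 CPM in cKO vehicle Tregs. WT Tregs had 122, 109.9 and 125 CPM with DMαKG and 104, 97.3 and 105 CPM with vehicle. The DMαKG libraries thus lay wholly below the vehicle libraries in cKO and wholly above them in WT. The log2 fold change was -0.56 in cKO (SE 0.10, edgeR adjusted p = 0.115) and 0.22 in WT (edgeR adjusted p = 0.999), and the interaction was -0.79 (edgeR adjusted p = 0.955, DESeq2 0.00105, voom 0.0464). With vehicle, Ncoa7 was among the 8 genes that edgeR called in cKO over WT (0.062% of those tested), with a log2 fold change of 0.64. That comparison shares the cKO vehicle libraries with the one described here.

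Interferon-stimulated genes were lower with DMαKG in cKO Tregs. Of 44 tested, 42 had a lower and 2 a higher level, and the median log2 fold change was -0.42, against 0.004 over all genes. At an unadjusted edgeR p below 0.05, 25 of the 44 (56.8%) were lower and 0 higher, where 9.87% of all tested genes were lower. In 24 of 44 the DMαKG libraries lay wholly below the vehicle libraries, where 12.2% of all genes did, and none passed the edgeR adjusted threshold. DESeq2 called 8 members and voom 15, all of them lower, where DESeq2 called 3.34% and voom 3.49% of all genes in either direction. The mean log2 CPM of the list was 5.52, 5.50 and 5.80 in cKO DMαKG Tregs and 6.08, 6.22 and 6.06 in cKO vehicle Tregs, without overlap. In WT Tregs it was 5.76, 5.72 and 6.16 with DMαKG and 5.98, 5.81 and 6.33 with vehicle, which overlapped, and the median log2 fold change was -0.13, with 40 of 44 members lower and 0 at an unadjusted p below 0.05. The cKO median stayed negative in every alternative, from -0.56 with DMαKG replicate 2 alone to -0.31 with the Y-linked covariate. In bulk RNA, fewer cells of a type and less RNA per cell cannot be told apart.

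**Figure D1:**
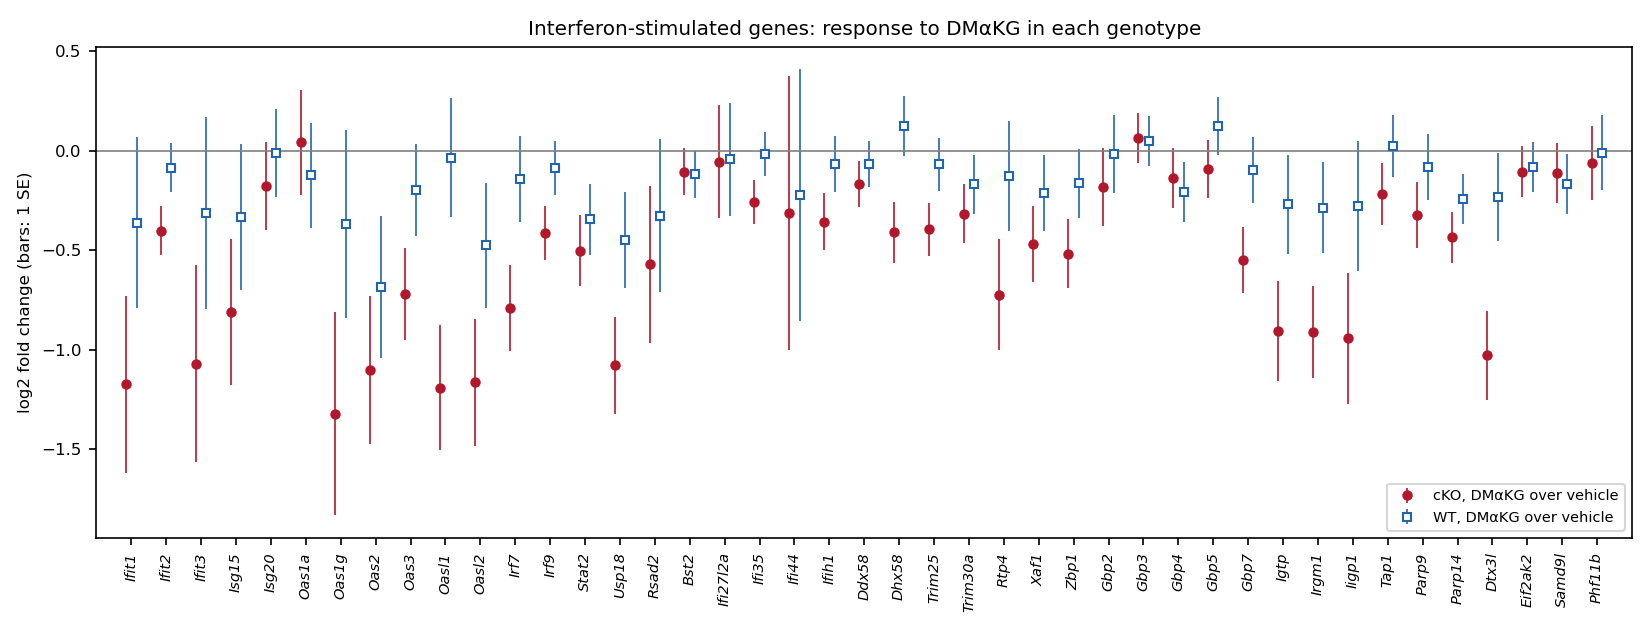
Log2 fold change of DMαKG over vehicle (y axis; bars, 1 SE) for 43 of the 44 tested interferon-stimulated genes (x axis) in cKO Tregs (red circles) and WT Tregs (blue squares). In cKO 41 of the 43 drawn lie below 0, and in WT 39.

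Interferons act through JAK kinases on transcription factors, among which STAT2 and IRF9 belong to the complex ISGF3 that binds interferon-stimulated response elements near target genes. Irf9 stood at 111, 106 and 112 CPM in cKO DMαKG Tregs and 143, 149.6 and 145 CPM in cKO vehicle Tregs (log2 fold change -0.41, SE 0.14, edgeR adjusted p = 0.191). Stat2, which overlaps Apof, stood at 78.7, 88.9 and 74.7 CPM with DMαKG and 118, 121 and 104 CPM with vehicle (log2 fold change -0.50). Irf9 and Stat2 were apart between the groups.

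The Ifit genes encode RNA-binding antiviral proteins and are strongly inducible by interferon. The 250 bases before a listed start of Ifit1 (chr19:34640639-34640888) and of Ifit3 (chr19:34583279-34583528, inside the gene, which begins at 34583119) are shown. The letters of the response element can be read in these windows. They come from RefSeq on GRCm38.p6, both from the plus strand and 5′ to 3′, and capitals mark the motif GAAA NN GAAA (NN, any bases), here read on the other strand as TTTC NN TTTC.
Ifit1: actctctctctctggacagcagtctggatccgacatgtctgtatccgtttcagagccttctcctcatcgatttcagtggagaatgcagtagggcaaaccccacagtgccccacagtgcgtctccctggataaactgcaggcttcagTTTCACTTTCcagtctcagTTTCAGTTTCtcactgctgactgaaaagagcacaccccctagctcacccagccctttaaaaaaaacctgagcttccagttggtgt
Ifit3: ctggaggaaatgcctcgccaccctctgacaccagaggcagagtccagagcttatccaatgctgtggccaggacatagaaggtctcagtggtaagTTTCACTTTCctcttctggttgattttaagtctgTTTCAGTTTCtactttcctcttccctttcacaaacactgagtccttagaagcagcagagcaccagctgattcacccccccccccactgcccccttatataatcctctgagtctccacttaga
Each window held 2 matches, and those of Ifit2 held 0. Of 33 interferon-stimulated genes with a window in the RefSeq table, 17 (51.5%) had a match on either strand, against 353 of 10369 tested genes (3.4%) and 936 of 27025 genes in all (3.46%). A match describes the letters and is not a measured binding site.

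Ifit1, which overlaps Ifit1bl1, stood at 9.65, 10.9 and 19.3 CPM in cKO DMαKG Tregs and 24.3, 24.7 and 40.8 CPM in cKO vehicle Tregs (log2 fold change -1.17, SE 0.44, edgeR adjusted p = 0.228). Ifit2 stood at 49.2, 54.1 and 60.7 CPM with DMαKG and 74.6, 63.3 and 78.8 CPM with vehicle (log2 fold change -0.40). Ifit3 stood at 11.8, 13.9 and 29.3 CPM with DMαKG and 25.6, 41 and 49 CPM with vehicle (log2 fold change -1.07). The groups were apart for Ifit1 and Ifit2, and for Ifit3 the DMαKG replicate 3 lay above the lowest vehicle library.

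The 8 members that DESeq2 called, chosen after their values were seen, cover regulators and effectors of the response. Usp18, a protease that removes ISG15 from proteins and dampens receptor signalling, stood at 14.9, 17.5 and 19.5 CPM in cKO DMαKG Tregs and 35.1, 43.8 and 30.8 CPM in cKO vehicle Tregs (log2 fold change -1.08, SE 0.24, edgeR adjusted p = 0.132, DESeq2 0.00622). Irf7, a transcription factor that amplifies type I interferon production, stood at 41.7, 52.8 and 51.1 CPM with DMαKG and 84.3, 94.3 and 73.2 CPM with vehicle (log2 fold change -0.79, SE 0.22, edgeR adjusted p = 0.155). Igtp and Irgm1 encode GTPases that act on the membranes around intracellular microbes. Igtp stood at 165, 153 and 195 CPM with DMαKG and 327, 333 and 300.4 CPM with vehicle, and Irgm1 at 60.5, 58.7 and 77.1 CPM with DMαKG and 133, 115 and 121 CPM with vehicle. Dtx3l, a ubiquitin ligase gene that overlaps its partner Parp9, stood at 115, 118 and 87.2 CPM with DMαKG and 217, 214 and 222 CPM with vehicle. Oasl1 and Oasl2, of the oligoadenylate synthetase family, had log2 fold changes of -1.19 and -1.16, and Parp14, an ADP-ribosyltransferase gene, of -0.44. In all 8 the DMαKG libraries lay wholly below the vehicle libraries. With DMαKG replicate 2 alone their log2 fold changes ran from -1.21 (Oasl2) to -0.34 (Parp14).

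Over the whole list the 44 log2 fold changes ran from -1.32 to 0.07, and Oas1a and Gbp3 were the 2 above 0. Genes of MHC class I presentation, which interferon also induces, had a median of 0.08 (-0.07 with DMαKG replicate 2 alone), with 14 of 21 higher. Schlafen genes, several of them interferon-inducible, were taken as a family after their values were seen. Of 7 tested, 6 were lower with DMαKG (median -0.51), 3 of them at an unadjusted edgeR p below 0.05, where 9.87% of all genes were, and their summed level was 588, 520 and 583 CPM in cKO DMαKG Tregs and 944, 900 and 1250 CPM in cKO vehicle Tregs. Slfn1 stood at 68.3, 77.3 and 80.8 CPM with DMαKG and 166, 187 and 268 CPM with vehicle (log2 fold change -1.46, SE 0.27, edgeR adjusted p = 0.125). Slfn2 had a log2 fold change of -1.02. The groups were apart for the sum and for both genes. In WT Tregs the sum was 823, 722 and 1150 CPM with DMαKG and 1010, 919 and 1320 CPM with vehicle, which overlapped.

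Many genes of the Treg core signature were higher with DMαKG. Of 28 tested, 20 were higher and 8 lower, with a median log2 fold change of 0.20. At an unadjusted edgeR p below 0.05, 12 were higher (42.9%) and 2 lower (7.14%), where 7.4% of all genes were higher and 9.87% lower. The mean log2 CPM of the list was 8.04, 7.97 and 7.97 in cKO DMαKG Tregs and 7.71, 7.79 and 7.66 in cKO vehicle Tregs, without overlap. In WT Tregs it was 7.78, 7.84 and 7.59 with DMαKG and 7.54, 7.49 and 7.61 with vehicle, where DMαKG replicate 3 lay among the vehicle libraries. In WT 26 of 28 members were higher, and the median log2 fold change was 0.185. The cKO median was 0.12 with DMαKG replicate 2 alone.

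Ctla4 encodes the inhibitory receptor with which Tregs remove costimulatory ligands from antigen-presenting cells (chromosome 1, 60909025 to 60915832, GRCm38.p6). It stood at 1965, 2307 and 3001 CPM in cKO DMαKG Tregs and 666, 949 and 489.6 CPM in cKO vehicle Tregs. The lowest DMαKG library was above the highest vehicle library, and the log2 fold change was 1.79 (SE 0.41, edgeR adjusted p = 0.132, DESeq2 0.000533, voom 0.0402). It was 1.72 with DMαKG replicate 2 alone. In WT Tregs Ctla4 stood at 1722, 1722 and 514 CPM with DMαKG and 882, 809 and 582.5 CPM with vehicle, where DMαKG replicate 3 lay below every vehicle library.

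On either side of Ctla4 lie Cd28 (60746388 to 60773359) and Icos (60960773 to 61000322), which encode costimulatory receptors. Cd28 stood at 639, 714 and 908 CPM in cKO DMαKG Tregs and 279, 437 and 297 CPM in cKO vehicle Tregs, without overlap (log2 fold change 1.158, SE 0.29, edgeR adjusted p = 0.144). Icos stood at 660.1, 493 and 653 CPM with DMαKG and 243, 282 and 515 CPM with vehicle (log2 fold change 0.80, and 0.51 with DMαKG replicate 2 alone), where vehicle replicate 4 overlapped the DMαKG libraries.

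Beside Ctla4, DESeq2 called 5 members of the Treg signature, which were chosen after their values were seen except for Itgae. Of all genes DESeq2 called 3.34%. Tnfrsf4, the OX40 gene, which overlaps Sdf4, stood at 402, 348 and 468 CPM in cKO DMαKG Tregs and 207, 245 and 257 CPM in cKO vehicle Tregs (log2 fold change 0.78, and 0.52 in WT, where the groups overlapped). Penk, which encodes the opioid precursor proenkephalin, stood at 198, 177 and 268 CPM with DMαKG and 126, 145 and 126 CPM with vehicle (0.69, and 0.42 with DMαKG replicate 2 alone). Both were apart between the cKO groups. Cd83, an activation marker, had a log2 fold change of 0.96 with overlapping groups, and 0.26 with DMαKG replicate 2 alone. Gpr83, a G protein-coupled receptor gene enriched in Tregs, was lower, at 64.4, 98.8 and 65.6 CPM with DMαKG and 125, 147 and 235 CPM with vehicle (log2 fold change -1.15), without overlap. Ikzf2, which encodes the transcription factor Helios, stood at 1333, 1158 and 1543 CPM with DMαKG and 1162, 1239 and 960.2 CPM with vehicle, and Tnfrsf18, which encodes GITR, at 278, 239.5 and 349.7 CPM with DMαKG and 198, 243 and 228 CPM with vehicle. Both overlapped, with log2 fold changes of 0.26 for Ikzf2 and 0.37 for Tnfrsf18, which were 0.05 and 0.11 with DMαKG replicate 2 alone.

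Il10, the gene of an inhibitory cytokine, stood at 33.4, 20.5 and 26.7 CPM in cKO DMαKG Tregs and 4.44, 18.5 and 4.13 CPM in cKO vehicle Tregs. The groups were narrowly apart, since vehicle replicate 3 came close to DMαKG replicate 2, and the log2 fold change was 1.58 (SE 0.59, edgeR adjusted p = 0.226). Without cKO vehicle replicate 3 it was 2.67. WT Tregs had 37.5, 48.7 and 15.4 CPM with DMαKG and 34, 20.3 and 21.7 CPM with vehicle, which overlapped. Of 14 suppressive molecules 10 were higher and 4 lower (median 0.35), with 3 higher (21.4%) and 0 lower at an unadjusted edgeR p below 0.05, against 7.4% and 9.87% of all genes. That median was 0.16 with DMαKG replicate 2 alone and 0.13 without cKO vehicle replicate 4. Entpd1, which encodes the ectonucleotidase CD39, had a log2 fold change of 0.49, and Cd274, which encodes PD-L1 and overlaps Plgrkt, of 0.45, with overlapping groups (Entpd1 0.26 and Cd274 0.16 with DMαKG replicate 2 alone). Lag3, an inhibitory receptor gene, stood at 33.9, 42 and 25.2 CPM with DMαKG and 36.1, 37 and 40.2 CPM with vehicle, which overlapped.

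Of 22 costimulatory and inhibitory receptors 12 were higher and 10 lower (median 0.21), with 9 higher (40.9%) and 1 lower (4.55%) at an unadjusted edgeR p below 0.05, against 7.4% and 9.87% of all genes. The mean log2 CPM of the list was 7.35, 7.24 and 7.33 in cKO DMαKG Tregs and 7.00, 7.09 and 7.05 in cKO vehicle Tregs, without overlap. In WT Tregs 16 of the 22 were higher, with a median of 0.135. The cKO median was 0.07 with DMαKG replicate 2 alone and 0.04 with the Y-linked covariate. Tigit, an inhibitory receptor gene that overlaps Zbtb20, stood at 219.6, 201 and 189 CPM with DMαKG and 160.2, 165 and 106 CPM with vehicle (log2 fold change 0.50), without overlap. Ctla4, Icos, Tigit, Tnfrsf4, Tnfrsf9 and Tnfrsf18 are on both this list and the Treg signature, so the counts of the lists are not independent.

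**Figure D2:**
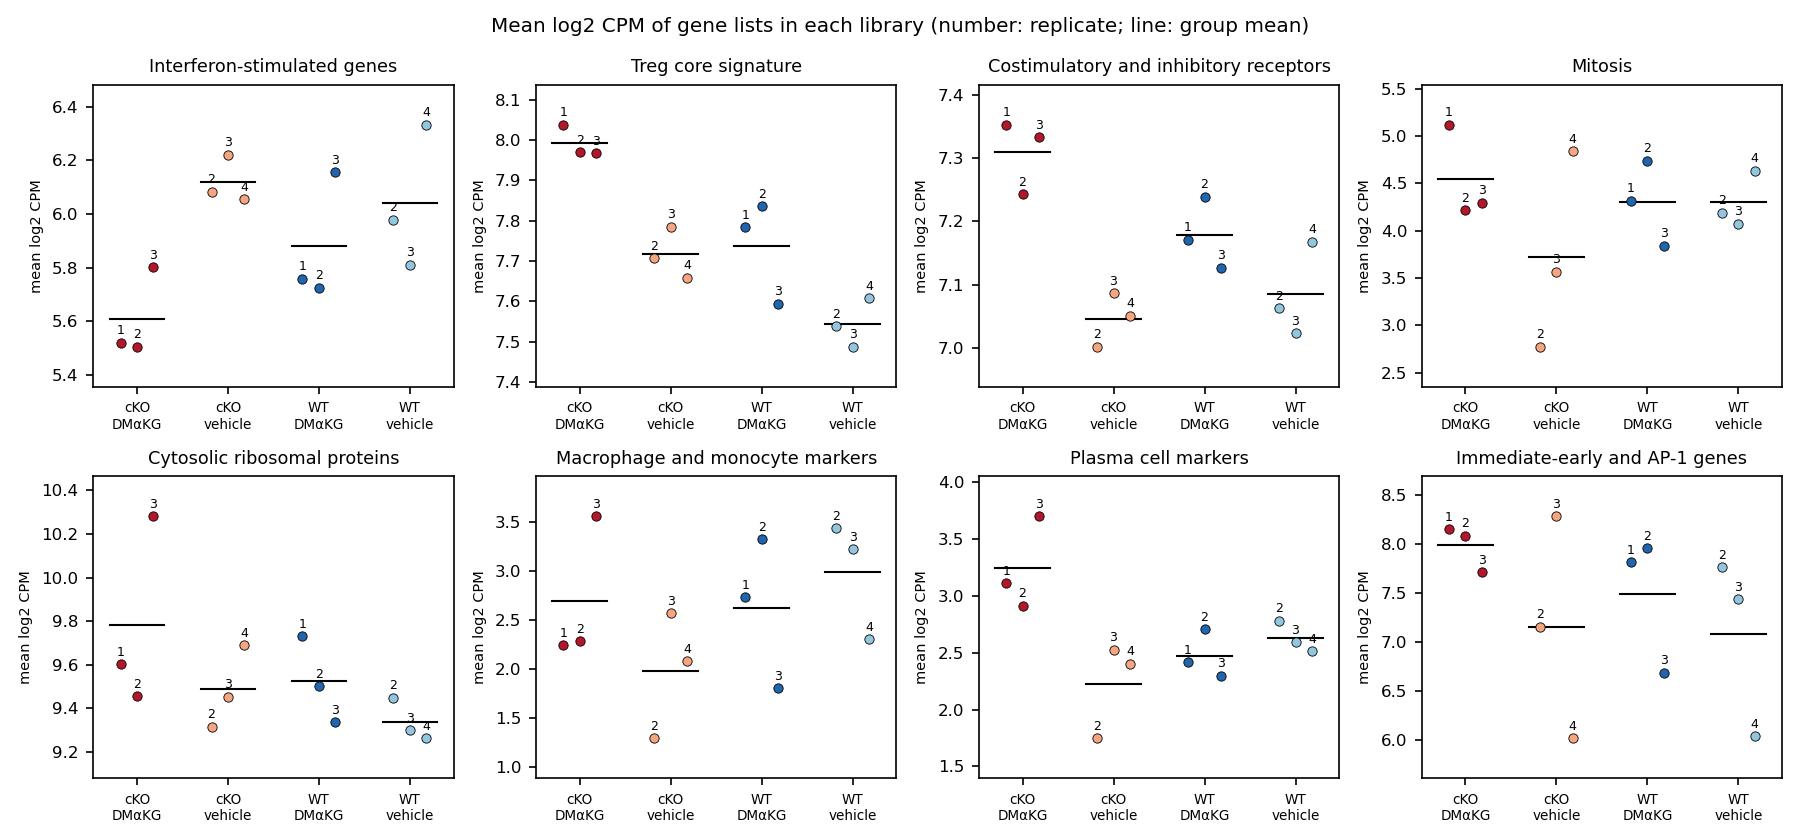
Mean log2 CPM (y axis) of 8 gene lists in each library (points, numbered by replicate; lines, group means) of the cKO DMαKG, cKO vehicle, WT DMαKG and WT vehicle groups. The cKO DMαKG libraries lie below the cKO vehicle libraries for interferon-stimulated genes (5.50 to 5.80 against 6.06 to 6.22) and above them for the Treg core signature (7.97 to 8.04 against 7.66 to 7.79), and the 2 groups overlap for mitosis.

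Lists of resting and of effector Treg genes leaned lower and higher on median, and each median changed sign with DMαKG replicate 2 alone. Ccr7, the receptor that brings naive and central T cells into lymph nodes, stood at 788, 872 and 1148 CPM in cKO DMαKG Tregs and 195, 353 and 196 CPM in cKO vehicle Tregs (cKO log2 fold change 1.92, SE 0.47, edgeR adjusted p = 0.145, WT log2 fold change 1.20 with overlapping groups). Id3, an inhibitor of E proteins chosen after its values were seen, stood at 19.6, 14.4 and 8.97 CPM with DMαKG and 29.7, 35.8 and 48.7 CPM with vehicle (log2 fold change -1.41, SE 0.38, edgeR adjusted p = 0.155). Neither gene overlapped between the cKO groups. Of 16 resting and naive genes 5 were higher and 11 lower (median -0.27), with 1 higher (6.25%) and 4 lower (25%) at an unadjusted edgeR p below 0.05, against 7.4% and 9.87% of all genes. With DMαKG replicate 2 alone the median was 0.07. Lef1, a transcription factor gene of naive T cells, had a log2 fold change of -0.43, and -0.03 with that library alone. The groups overlapped for Lef1.

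Of 26 effector Treg genes 16 were higher and 10 lower (median 0.15), with 7 higher (26.9%) and 0 lower at an unadjusted edgeR p below 0.05, against 7.4% and 9.87% of all genes. With DMαKG replicate 2 alone the median was -0.26, so its sign rested on the other 2 libraries. Ccr8, a chemokine receptor of tissue Tregs, stood at 127, 86.2 and 96.5 CPM in cKO DMαKG Tregs and 37.3, 56.3 and 43 CPM in cKO vehicle Tregs, without overlap (log2 fold change 1.18, SE 0.25, edgeR adjusted p = 0.132, DESeq2 0.002, voom 0.0303). With replicate 2 alone its log2 fold change was 0.92, and in WT, where the groups overlapped, it was 0.58. Prdm1, which encodes the effector regulator Blimp-1, stood at 67.2, 33.4 and 15.1 CPM with DMαKG and 16.9, 26.5 and 16.4 CPM with vehicle, a log2 fold change of 0.95 that was 0.30 without DMαKG replicate 1. Klrg1, a marker of terminally differentiated Tregs, stood at 23.5, 6.41 and 25.3 CPM with DMαKG and 7.31, 16.9 and 6.70 CPM with vehicle. Batf, a transcription factor gene of tissue Tregs, stood at 86.3, 72.2 and 106 CPM with DMαKG and 71.2, 89.5 and 98.7 CPM with vehicle. The groups overlapped for Prdm1, Klrg1 and Batf.

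Protein-coding genes whose groups did not overlap, and whose mean reached 5 CPM in the cKO DMαKG or cKO vehicle group, were ranked by p, with predicted genes (named Gm or Rik) counted but passed over. On the higher side 6 predicted genes had a smaller p than the last gene named, 5 of them in the chromosome 14 family described with the gene families, and on the lower side 0. The 8 first named on the higher side were Haspin, Ahr, Kit, Ttc19, Zdhhc23, Itgae, Cenpu and Ccr8. Haspin encodes a kinase that phosphorylates histone H3 in mitosis and lies within Itgae (chromosome 11; Haspin 73135484 to 73138294, Itgae 73090505 to 73147449). It stood at 69, 54.2 and 49.1 CPM in cKO DMαKG Tregs and 26, 17 and 23.9 CPM in cKO vehicle Tregs (log2 fold change 1.36, SE 0.20, edgeR adjusted p = 0.0832, DESeq2 5.4e-07, voom 0.00504). Itgae, the integrin CD103 that binds E-cadherin on epithelia, stood at 463, 299 and 262 CPM with DMαKG and 166, 132 and 194 CPM with vehicle (log2 fold change 1.06, SE 0.21, edgeR adjusted p = 0.125). For both, each DMαKG library was above each vehicle library, and their reads cannot be told apart with certainty where the genes overlap. In WT Tregs Haspin stood at 28.8, 27.7 and 19.2 CPM with DMαKG and 20.7, 26.9 and 23.6 CPM with vehicle, which overlapped, and the interaction was 1.28 (edgeR adjusted p = 0.955).

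Ahr encodes the aryl hydrocarbon receptor, a ligand-activated transcription factor. It stood at 85, 81.1 and 64 CPM in cKO DMαKG Tregs and 43.1, 43.3 and 36.8 CPM in cKO vehicle Tregs (log2 fold change 0.90, SE 0.16, edgeR adjusted p = 0.115), and at 61.6, 53.4 and 43.8 CPM in WT DMαKG Tregs and 52.4, 54 and 41.4 CPM in WT vehicle Tregs. Kit, the stem cell factor receptor gene, stood at 18.8, 19.7 and 19.8 CPM in cKO DMαKG Tregs and 9.37, 9.22 and 12.2 CPM in cKO vehicle Tregs, and at 7.85, 6.75 and 6.40 CPM in WT DMαKG Tregs and 4.24, 5.94 and 6.35 CPM in WT vehicle Tregs. The groups were apart in cKO for both genes and in WT for Kit, with log2 fold changes for Kit of 0.92 in cKO and 0.34 in WT. The others were Ttc19, a gene of mitochondrial complex III assembly that overlaps Ncor1 (0.66), Zdhhc23, a palmitoyltransferase gene (0.55), and Cenpu, a centromere protein gene that overlaps Primpol (1.13). With DMαKG replicate 2 alone the 8 log2 fold changes lay between 0.58 (Ttc19 and Zdhhc23) and 1.29 (Haspin).

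On the lower side the 8 were Fam177a, Eef1aknmt, Ncoa7, Zfp46, Zfp82, Nfe2l2, Napepld and Slfn5. Fam177a, which overlaps Gm2436 (chromosome 12, 55124435 to 55142104), stood at 21.6, 20.1 and 13.7 CPM in cKO DMαKG Tregs and 43.9, 58.4 and 56.3 CPM in cKO vehicle Tregs (log2 fold change -1.52, SE 0.24, edgeR adjusted p = 0.0834, DESeq2 2.86e-06, voom 0.0253). WT Tregs had 25.4, 40.6 and 24.3 CPM with DMαKG and 56.8, 40.9 and 62.1 CPM with vehicle, narrowly apart in the same direction (log2 fold change -0.82, edgeR adjusted p = 0.999). Nfe2l2 encodes NRF2, the main activator of antioxidant genes. It stood at 15.5, 13.8 and 15.1 CPM in cKO DMαKG Tregs and 31.6, 28.4 and 37.2 CPM in cKO vehicle Tregs (log2 fold change -1.13, SE 0.21, edgeR adjusted p = 0.115). In cKO the gap between the groups was wider than the range within either of them for both genes.

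Slfn5, a Schlafen gene, stood at 126, 118 and 122 CPM in cKO DMαKG Tregs and 224, 202 and 238 CPM in cKO vehicle Tregs (log2 fold change -0.86). Zfp46, a zinc finger gene, stood at 6.22, 10.04 and 5.28 CPM with DMαKG and 17.1, 19.7 and 24 CPM with vehicle (log2 fold change -1.49, and -1.01 with DMαKG replicate 2 alone). Zfp82, another zinc finger gene, had a log2 fold change of -0.93, Napepld, which encodes an enzyme that makes N-acylethanolamine lipids, of -1.25, and Eef1aknmt, a methyltransferase gene of elongation factor 1A, of -0.73. DESeq2 and voom each called all 16 genes of the 2 sides, and so did edgeR without WT DMαKG replicate 3.

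**Figure D3:**
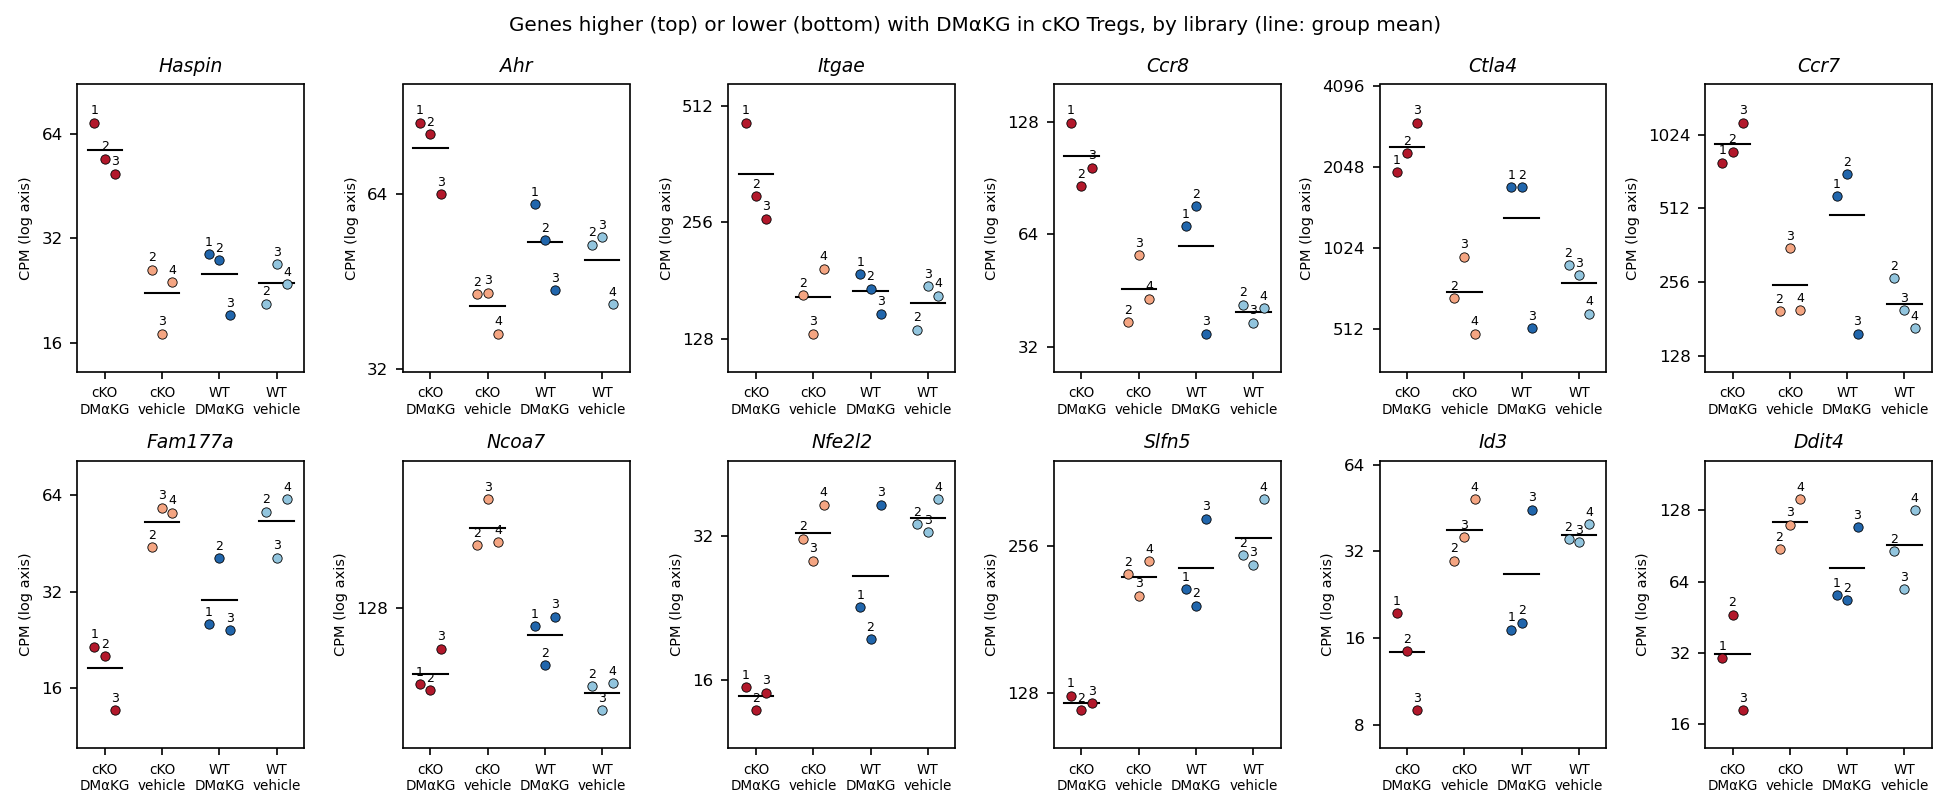
CPM (y axis, log scale) of 12 genes in each library (points, numbered by replicate; lines, group means) of the cKO DMαKG, cKO vehicle, WT DMαKG and WT vehicle groups, of which Id3 and Ddit4 were chosen after their values were seen. The cKO DMαKG and cKO vehicle libraries do not overlap in any panel, as for Haspin (49.1 to 69 CPM against 17 to 26 CPM). Except for Ctla4, Ccr7, Id3 and Ddit4, groups apart were a condition for naming these genes.

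In the interaction, among protein-coding genes with a mean of 5 CPM or more in any group and predicted genes passed over, the smallest p-values belonged to Haspin, Ttc19, Ahr and Rassf4 above 0 and to Ncoa7, Eef1aknmt, Cd3eap and Treml2 below 0. Treml2, a receptor gene of the TREM family, stood at 89, 121 and 97.6 CPM in cKO DMαKG Tregs and 159, 160 and 186 CPM in cKO vehicle Tregs, and at 135, 108 and 125 CPM in WT DMαKG Tregs and 129.6, 102 and 131 CPM in WT vehicle Tregs. The cKO groups were apart and the WT groups overlapped, with log2 fold changes of -0.72 in cKO (-0.47 with DMαKG replicate 2 alone) and 0.02 in WT. Cd3eap, an RNA polymerase I subunit gene that overlaps Ercc1, had log2 fold changes of -0.56 in cKO and 0.10 in WT. Rassf4, a gene of the RAS-association family that overlaps Depp1, had 0.67 in cKO (0.24 with DMαKG replicate 2 alone) and -0.69 in WT. Each of these 8 genes had an edgeR adjusted p of 0.955 for the interaction.

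The genes that differed between cKO and WT Tregs with vehicle were followed under DMαKG. Ncf1, the gene of a cytosolic component of NADPH oxidase in phagocytes, stood at 32.1, 36.2 and 37.4 CPM in cKO DMαKG Tregs, 63, 52 and 53.9 CPM in cKO vehicle Tregs and 22, 16.2 and 23 CPM in WT vehicle Tregs. The cKO DMαKG libraries thus lay between the other 2 groups without overlap, and the log2 fold change of DMαKG over vehicle in cKO was -0.68 (SE 0.14, edgeR adjusted p = 0.127, DESeq2 0.00306, voom 0.0303). Nrn1, which encodes neuritin, stood at 22.5, 16.2 and 19.3 CPM in cKO DMαKG Tregs, 14.2, 13.7 and 12.7 CPM in cKO vehicle Tregs and 28.5, 40.6 and 33.5 CPM in WT vehicle Tregs (log2 fold change in cKO 0.51, 0.26 with DMαKG replicate 2 alone, edgeR adjusted p = 0.203), also between. Cc2d2a, a gene of primary cilia, had a log2 fold change of 0.87, and Cxcr6, a chemokine receptor gene that overlaps Fyco1, of 0.48. Phlda3, a p53 target, and 5830411N06Rik had -0.17 and -0.41, with overlapping groups (-0.04 and -0.16 with DMαKG replicate 2 alone). Because these genes were picked by a comparison that uses the same cKO vehicle libraries, a position nearer to WT is partly set by that choice.

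The lists of α-ketoglutarate-dependent dioxygenases each had more members lower than higher, with medians between -0.08 and -0.05. With DMαKG replicate 2 alone each of the medians was 0.05. Of 15 TET and DNA methylation genes 6 were higher and 9 lower (median log2 fold change -0.05), with 1 higher (6.67%) and 2 lower (13.3%) at an unadjusted edgeR p below 0.05, near the 7.4% and 9.87% of all genes. Tet2 stood at 117, 109 and 141 CPM in cKO DMαKG Tregs and 85.6, 84.9 and 69.7 CPM in cKO vehicle Tregs, without overlap (log2 fold change 0.61, SE 0.15, edgeR adjusted p = 0.144, DESeq2 0.0133, voom 0.041). Tet3 stood at 160.5, 195 and 143 CPM with DMαKG and 171, 225 and 281 CPM with vehicle (log2 fold change -0.44, and -0.21 with DMαKG replicate 2 alone), and Tet1 at 25.4, 26.2 and 21.6 CPM with DMαKG and 26.5, 25.4 and 25.1 CPM with vehicle. The groups overlapped for Tet1 and Tet3.

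Of 20 JmjC histone demethylase genes 5 were higher and 15 lower (median -0.08), with 4 higher (20%) and 3 lower (15%) at an unadjusted edgeR p below 0.05, against 7.4% and 9.87% of all genes. The genes of the histone H3 lysine 27 demethylases, Kdm6a and Kdm6b, were picked after their values were seen. Kdm6b stood at 271, 310.1 and 297 CPM in cKO DMαKG Tregs and 189.7, 236 and 144 CPM in cKO vehicle Tregs (log2 fold change 0.62, edgeR adjusted p = 0.196). Kdm6a stood at 177, 134 and 174 CPM with DMαKG and 109.9, 98.7 and 78.1 CPM with vehicle (log2 fold change 0.76). The groups were apart for both, but Kdm6a is X-linked and escapes X inactivation, and of the 6 cKO libraries the 2 with low Y-linked counts were highest for it. Its log2 fold change was 0.49 with DMαKG replicate 2 alone and 0.32 with the Y-linked covariate. Jmjd1c, which overlaps Reep3, had a log2 fold change of 0.53, and Jmjd6, which overlaps Mettl23, of -0.50. Kdm2a, a histone H3 lysine 36 demethylase gene that overlaps 9430078G10Rik, stood at 138, 158 and 109 CPM with DMαKG and 210.3, 197 and 183 CPM with vehicle (log2 fold change -0.54, and -0.31 with DMαKG replicate 2 alone), without overlap. Kdm3a had a log2 fold change of -0.19, and Kdm2b stood at 157, 139 and 92.3 CPM with DMαKG and 131, 165 and 104 CPM with vehicle, which overlapped.

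Of 17 prolyl hydroxylase and other dioxygenase genes 4 were higher and 13 lower (median -0.07), with 2 higher (11.8%) and 3 lower (17.6%) at an unadjusted edgeR p below 0.05, against 7.4% and 9.87% of all genes. Egln2 and Egln3, genes of HIF prolyl hydroxylases, had log2 fold changes of -0.40 and 0.27, and that of Egln2 was -0.08 with DMαKG replicate 2 alone. Egln1 stood at 73.4, 89.2 and 51.4 CPM in cKO DMαKG Tregs and 88.5, 83.2 and 74.9 CPM in cKO vehicle Tregs, which overlapped. Of 16 HIF target genes 11 were higher and 5 lower (median 0.19), with 1 higher and 1 lower (6.25% each) at an unadjusted edgeR p below 0.05, below the 7.4% and 9.87% of all genes. The median was 0.08 without DMαKG replicate 3 and 0.05 with DMαKG replicate 2 alone. Slc2a1, the glucose transporter GLUT1, had a log2 fold change of 0.24, and 0.37 with that library alone. Ddit4, which encodes the mTORC1 inhibitor REDD1 and was chosen after its values were seen, stood at 30.4, 46.5 and 18.3 CPM with DMαKG and 88, 111 and 143 CPM with vehicle (log2 fold change -1.84, SE 0.41, edgeR adjusted p = 0.132, DESeq2 0.000339, voom 0.0253). Its groups were apart, in the direction opposite to most of the list. Of 24 genes of mTOR, PI3K and AMPK signalling 3 were higher and 21 lower, with a median of -0.16 that was 0.01 with DMαKG replicate 2 alone.

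Lists of central metabolism had medians close to 0. The median log2 fold change was 0.02 for 28 genes of the tricarboxylic acid cycle and α-ketoglutarate handling, 0.02 for 15 genes of the pentose phosphate pathway, -0.01 for 24 genes of glycolysis, 0.05 for 17 genes of glutamine and glutamate metabolism and 0.03 for 26 genes of fatty acid oxidation. Ogdh, a subunit gene of the α-ketoglutarate dehydrogenase complex that overlaps Gm46270, stood at 199, 217 and 124 CPM in cKO DMαKG Tregs and 228, 235 and 192 CPM in cKO vehicle Tregs. Idh1, the cytosolic isocitrate dehydrogenase gene, had a log2 fold change of -0.54. Idh2, its mitochondrial relative, stood at 37.4, 31.6 and 29.9 CPM with DMαKG and 31.1, 29.9 and 34.2 CPM with vehicle. G6pdx, the gene of the first enzyme of the pentose phosphate pathway, which overlaps Ikbkg, stood at 50.2, 39.7 and 58.5 CPM with DMαKG and 44.9, 44.7 and 56.8 CPM with vehicle. The groups overlapped for these 4 genes. Got1, an aspartate aminotransferase gene chosen after its values were seen, stood at 58.5, 64.9 and 95.1 CPM with DMαKG and 36.2, 45.1 and 43.1 CPM with vehicle, without overlap (log2 fold change 0.81, edgeR adjusted p = 0.144). Cpt1a and Cpt2, genes of the carnitine palmitoyltransferases that bring fatty acids into mitochondria, had log2 fold changes of -0.78 and -0.57, both with the DMαKG libraries wholly below the vehicle libraries.

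Of 28 antioxidant, glutathione and NRF2 genes 19 were higher and 9 lower (median 0.08), with 2 higher (7.14%) and 3 lower (10.7%) at an unadjusted edgeR p below 0.05, near the 7.4% and 9.87% of all genes. With DMαKG replicate 2 alone the median was -0.11. The lower ones were Nfe2l2, Ncf1 and Keap1, the gene of the inhibitor of NRF2. Keap1 stood at 54.8, 51.4 and 31.5 CPM in cKO DMαKG Tregs and 71.1, 64.7 and 69 CPM in cKO vehicle Tregs (log2 fold change -0.57), without overlap. Gclc and Gclm encode the subunits of glutamate-cysteine ligase and are NRF2 targets. Gclc stood at 58.5, 70.6 and 59.5 CPM with DMαKG and 61, 61.9 and 63 CPM with vehicle, and Gclm at 19.8, 17.4 and 13 CPM with DMαKG and 18, 19.7 and 19.8 CPM with vehicle. Both overlapped between the groups.

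**Figure D4:**
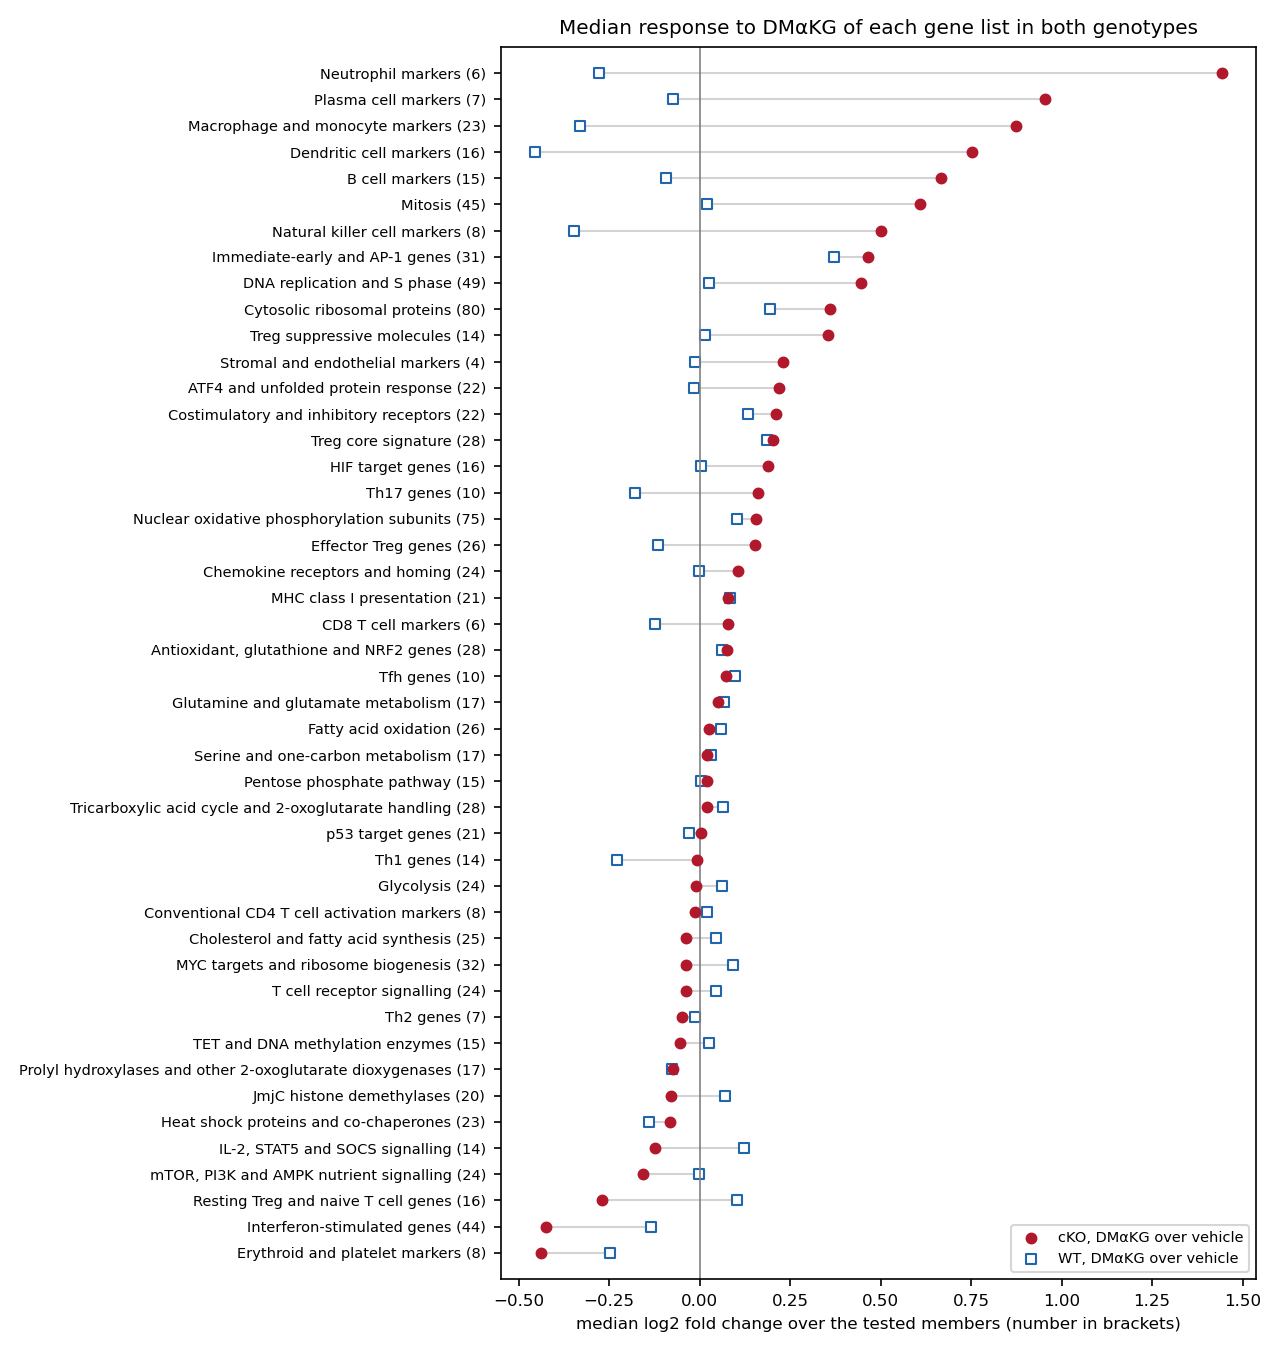
Median log2 fold change of DMαKG over vehicle (x axis) over the tested members of 46 gene lists (rows; number of members in brackets) in cKO Tregs (red circles) and WT Tregs (blue squares). Interferon-stimulated genes lie at -0.42 in cKO and -0.13 in WT, and markers of macrophages and monocytes at 0.87 in cKO and -0.33 in WT.

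Lists of proliferation, ribosomal protein and immediate-early genes were higher on median, and each rested on particular libraries. Of 45 mitosis genes 43 were higher (median log2 fold change 0.61), 4 of them (8.89%) at an unadjusted edgeR p below 0.05, where 7.4% of all genes were. DESeq2 called 0 mitosis genes and voom 20, all higher, with a median of 1.37 in the voom fit, where voom called 3.49% of all genes in either direction. The mean log2 CPM of the list was 5.12, 4.21 and 4.30 in cKO DMαKG Tregs and 2.77, 3.56 and 4.84 in cKO vehicle Tregs, which overlapped. The median was 0.26 without cKO vehicle replicate 2, 1.42 without cKO vehicle replicate 4 and 0.19 with DMαKG replicate 2 alone. Mki67, the proliferation marker Ki-67, stood at 404, 235 and 208 CPM with DMαKG and 93.2, 161 and 366 CPM with vehicle, which overlapped. Aurka, a mitotic kinase gene that overlaps Cstf1, had a log2 fold change of 0.99 and Top2a, a topoisomerase gene of dividing cells, of 0.78 (0.58 and 0.31 with DMαKG replicate 2 alone), both with overlapping groups. Of 49 DNA replication genes 45 were higher, with a median of 0.45 that was 0.18 without cKO vehicle replicate 2, 0.86 without cKO vehicle replicate 4 and 0.24 with DMαKG replicate 2 alone. At an unadjusted edgeR p below 0.05, 7 were higher (14.3%), against 7.4% of all genes. DESeq2 called 0 replication genes and voom 13, all higher, where voom called 3.49% of all genes. Pcna, the replication clamp gene, stood at 364, 279 and 419 CPM with DMαKG and 168, 228 and 270.3 CPM with vehicle, without overlap. Myc, an activator of growth genes, had a log2 fold change of -0.79 with overlapping groups, and -0.32 with DMαKG replicate 2 alone.

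Of 80 cytosolic ribosomal protein genes 79 were higher (median log2 fold change 0.36), 3 of them (3.75%) at an unadjusted edgeR p below 0.05, below the 7.4% of all genes. In WT Tregs 79 of the 80 were also higher with DMαKG, with a median of 0.195. The mean log2 CPM was 9.60, 9.46 and 10.28 in cKO DMαKG Tregs and 9.32, 9.45 and 9.69 in cKO vehicle Tregs, so DMαKG replicate 3 stood above the other libraries. Without it the cKO median was 0.05, with DMαKG replicate 2 alone -0.03, and with each library's trend on transcript length removed 0.19. Rpl3 and Rplp0 had log2 fold changes of 0.42 and 0.38, which were 0.10 and 0.06 with DMαKG replicate 2 alone. Nuclear genes of oxidative phosphorylation, 62 of 75 higher with a median of 0.16, had a median of -0.02 without DMαKG replicate 3 and -0.15 with DMαKG replicate 2 alone. In WT Tregs 68 of the 75 were higher, with a median of 0.104.

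Immediate-early and AP-1 genes respond rapidly to receptor signals. Of 31 tested, 23 were higher in cKO (median 0.46), with 3 higher and 3 lower (9.68% each) at an unadjusted edgeR p below 0.05, near the 7.4% and 9.87% of all genes. In WT Tregs 27 of the 31 were higher, with a median of 0.371. Fosb stood at 1119, 978 and 1058 CPM in cKO DMαKG Tregs and 148, 1076 and 10.3 CPM in cKO vehicle Tregs, so the vehicle libraries differed widely among themselves. The cKO median was 1.27 without cKO vehicle replicate 3, 0.15 without cKO vehicle replicate 4 and 0.06 in a fit blocked on the replicate number. Fosl2 and Nr4a3 were higher without overlap, with log2 fold changes of 1.99 and 0.93. Egr2 and Egr3, zinc finger factors induced by T cell receptor signals, had log2 fold changes of -1.48 and -0.97. Egr2 stood at 24, 20.5 and 11.9 CPM with DMαKG and 43.1, 54 and 59.8 CPM with vehicle, without overlap, and Nr4a3, Egr2 and Egr3 were chosen after their values were seen. The mean log2 CPM of the list was lowest of all 12 libraries in WT DMαKG replicate 3 (6.69), cKO vehicle replicate 4 (6.02) and WT vehicle replicate 4 (6.04). The same 3 libraries were lowest for Ctla4, at 514 CPM in WT DMαKG replicate 3, 489.6 CPM in cKO vehicle replicate 4 and 582.5 CPM in WT vehicle replicate 4. They were also the lowest for Kdm6a, Kdm6b and the nuclear receptor gene Rora, and on the first principal component. The part of the immediate-early level in the results for Ctla4 and these other genes was not tested.

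Markers of other cells were detected. Of 23 macrophage and monocyte markers 19 were higher with DMαKG (median 0.87), none had a count of 0 throughout the cKO libraries, and their summed level was 409 to 797 CPM in cKO DMαKG Tregs and 358 to 444 CPM in cKO vehicle Tregs. Without DMαKG replicate 3, which had the highest sum, the median was 0.20, and with DMαKG replicate 2 alone 0.14. Lyz2 stood at 15.9, 25.6 and 41 CPM with DMαKG and 21.8, 11.3 and 20.4 CPM with vehicle, and Csf1r at 21.5, 17 and 45.3 CPM with DMαKG and 4.98, 28.2 and 10.7 CPM with vehicle. The groups overlapped for both. In WT Tregs the macrophage list had a median of -0.33, with 18 of 23 lower. The part of these cells in the results on interferon-stimulated and Treg genes was not tested. Without DMαKG replicate 3 the median of the interferon-stimulated genes was -0.46.

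Of 16 dendritic cell markers 13 were higher (median 0.75, 0.31 without DMαKG replicate 3 and 0.24 with DMαKG replicate 2 alone), with summed levels of 284 to 341 CPM in cKO DMαKG Tregs and 167 to 287 CPM in cKO vehicle Tregs. Xcr1, a chemokine receptor of conventional dendritic cells chosen after its values were seen, stood at 3.43, 1.56 and 2.04 CPM with DMαKG and 0.433, 0.824 and 0.722 CPM with vehicle, without overlap (log2 fold change 1.81, edgeR adjusted p = 0.132, DESeq2 0.00798, voom 0.0323). Itgax had a log2 fold change of 0.86 with overlapping groups, and 0.56 with DMαKG replicate 2 alone. Of 7 plasma cell markers 6 were higher (median 0.95, and 0.42 without DMαKG replicate 1), with summed levels of 237 to 296 CPM with DMαKG and 179 to 287 CPM with vehicle. At an unadjusted edgeR p below 0.05, 5 of the 7 (71.4%) were higher and 0 lower, against 7.4% and 9.87% of all genes. The mean log2 CPM of the plasma list was 2.92 to 3.70 with DMαKG and 1.75 to 2.53 with vehicle, without overlap. Jchain, which joins polymeric immunoglobulins, stood at 1.29, 2.94 and 29.8 CPM with DMαKG and 0.650, 0.824 and 0.773 CPM with vehicle, and its log2 fold change of 3.91 was 1.5 without DMαKG replicate 3 and 1.97 with DMαKG replicate 2 alone. Of 15 B cell markers 14 were higher (median 0.67, -0.04 without DMαKG replicate 3 and 0.22 with DMαKG replicate 2 alone), with summed levels of 116 to 174 CPM with DMαKG and 99.9 to 126 CPM with vehicle. At that unadjusted p, 4 of the 15 B cell markers (26.7%) and 3 of the 16 dendritic cell markers (18.8%) were higher, and 0 of either list lower.

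Neutrophil markers summed to 16.6 to 63.4 CPM in cKO DMαKG Tregs and 13.1 to 16.7 CPM in cKO vehicle Tregs, with S100a9 at 0.389, 0.404 and 11 CPM with DMαKG and 0.0542, 0 and 1.24 CPM with vehicle. All 6 tested were higher (median 1.44), and the median was -0.02 without DMαKG replicate 3 and -0.23 with DMαKG replicate 2 alone. Natural killer markers summed to 24.5 to 42.3 CPM with DMαKG and 24.2 to 28.1 CPM with vehicle, with 6 of 8 higher. CD8 T cell markers summed to 31.9 to 37.4 CPM with DMαKG and 28.1 to 34.1 CPM with vehicle, with 3 of 6 higher. Erythroid and platelet markers summed to 5.71 to 15.8 CPM with DMαKG and 4.93 to 19.5 CPM with vehicle, with 1 of 8 higher. The summed levels overlapped between the groups for each of these cell types. Klra4, a natural killer receptor gene, and Pf4, a platelet gene, had a count of 0 in every cKO library.

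Genes with few exons were lower on median with DMαKG in cKO Tregs, a property examined after the values were seen. An exon number was found in GENCODE vM21 for 12470 of the 12903 genes (96.6%), as the highest among a gene's transcripts. Of 673 genes with 1 or 2 exons 155 (23%) were lower and 47 (6.98%) higher at an unadjusted edgeR p below 0.05. Of 2672 genes with over 16 exons 128 (4.79%) were lower and 180 (6.74%) higher. Between them the share lower was 17.9% with 3 or 4 exons, 11.1% with 5 to 8 and 7.2% with 9 to 16, so it was smaller in each successive class. Relative to each gene's mean over all libraries, the median level of genes with 1 or 2 exons was -0.10, -0.08 and -0.09 in cKO DMαKG Tregs and 0.04, 0.04 and 0.11 in cKO vehicle Tregs (log2 CPM), without overlap. In WT Tregs it was -0.02, -0.04 and 0.06 with DMαKG and 0.06, 0.08 and 0.10 with vehicle. Of the interferon-stimulated genes 4 had 1 or 2 exons, and the 40 with 3 or more had a median log2 fold change of -0.41, against 0.01 over all genes with 3 or more.

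A pair of gene families was also singled out after the values were seen. At the proximal end of chromosome 14 (3029918 to 7793645, GRCm38.p6) 47 of 51 tested predicted genes were higher with DMαKG in cKO Tregs, with a median log2 fold change of 0.83 and 29 at an unadjusted edgeR p below 0.05, where 7.4% of all genes were higher. Their summed level was 1830, 1720 and 2120 CPM in cKO DMαKG Tregs and 1480, 930 and 787 CPM in cKO vehicle Tregs. In WT Tregs it was 1010, 936 and 1380 CPM with DMαKG and 975, 1280 and 1110 CPM with vehicle. The cKO groups were apart and the WT groups overlapped, with 19 of 51 higher in WT (median -0.04) and 0 called by edgeR in the interaction. These genes are near-identical copies between which reads can be split, so single values and the number of independent genes are uncertain.

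The linker histone H1 genes on chromosome 13, H1f1 to H1f5, were higher in 5 of 5 cases in cKO (median log2 fold change 2.46) and in 5 of 5 in WT (median 1.98). H1f3 stood at 4.79, 5.02 and 3.94 CPM in cKO DMαKG Tregs and 0.758, 0.769 and 0.619 CPM in cKO vehicle Tregs (log2 fold change 2.67, SE 0.41, edgeR adjusted p = 0.0832, DESeq2 6.57e-07, voom 0.0117). In WT it stood at 2.52, 3.46 and 2.77 CPM with DMαKG and 0.565, 1.17 and 0.210 CPM with vehicle (log2 fold change 2.17, edgeR adjusted p = 0.999). The groups were apart in both genotypes. H1f4 had log2 fold changes of 2.10 in cKO and 1.98 in WT. H1f1 and H1f5 lay near the floor in cKO vehicle Tregs, at 0.108 to 0.494 CPM. H1f2 had the highest counts of the 5, at 21.9, 12.6 and 15 CPM in cKO DMαKG Tregs and 6.01, 15.5 and 2.01 CPM in cKO vehicle Tregs. Its cKO groups overlapped, with log2 fold changes of 1.075 in cKO and 0.48 in WT. The summed level of the 5 genes was 36.3, 24.8 and 27.2 CPM in cKO DMαKG Tregs and 8.61, 18.9 and 3.25 CPM in cKO vehicle Tregs. Of 23 core histone genes 19 were higher (median 0.76 in cKO and 0.67 in WT), and in cKO their summed level overlapped, at 37.7, 22.7 and 23.1 CPM with DMαKG and 16.5, 23.7 and 19.5 CPM with vehicle.

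**Figure D5:**
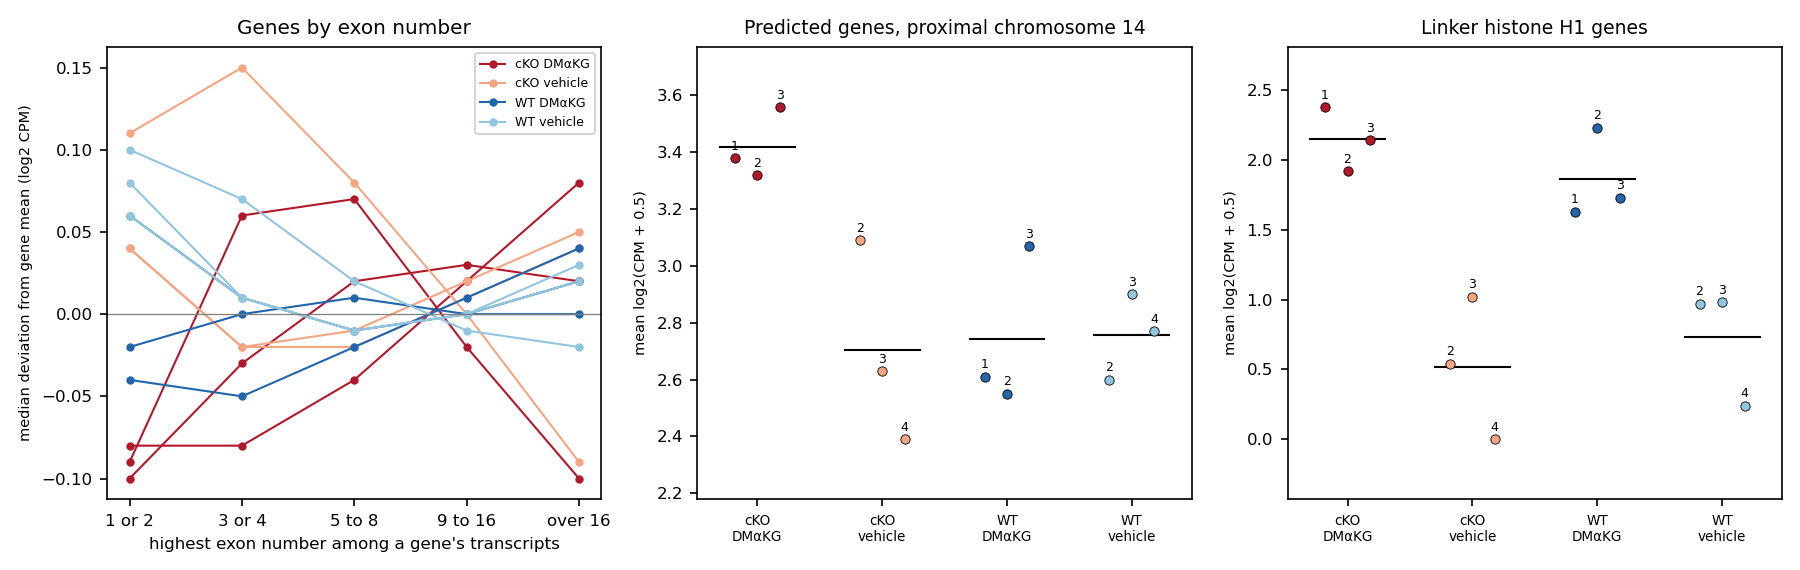
Left, median deviation of genes from their own mean over all libraries (y axis, log2 CPM) by highest exon number (x axis), with 1 line per library; middle and right, mean log2(CPM + 0.5) of 51 predicted genes of proximal chromosome 14 and of 5 linker histone H1 genes in each library (points, numbered by replicate; lines, group means). The cKO DMαKG lines start lowest, at -0.10 to -0.08 for 1 or 2 exons, and the cKO DMαKG libraries lie above the cKO vehicle libraries in the middle and right panels.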

How the data were processed

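RNA was sequenced from sorted Tregs in 12 libraries, 3 in each of 4 groups, and groups and replicate numbers were read from the labels. The submitters' processing notes list mm10 with featureCounts 1.5.0-p3, HISAT2 2.0.5 and DESeq2 1.16.1. The authors deposited a table of estimated counts, FPKM and TPM per library. The deposited estimated counts were not normalized, and 36% of the values were not whole, so they were rounded for testing, where whole-number counts had been planned for. The FPKM and TPM values deposited by the authors were not used.

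Testing of the rounded counts used edgeR 4.0.16 (R 4.3.3). Its expression filter left 12903 of 17955 genes (71.9%), libraries were scaled by TMM, and all 12 libraries entered a robust quasi-likelihood model with a mean for each group (8 residual degrees of freedom, common biological coefficient of variation 19.7%). Benjamini-Hochberg adjustment was made over all genes tested. CPM values use TMM-scaled library sizes, and log2 CPM a prior count of 2. Alternatives were other scalings and filters, DESeq2 1.42.0, voom in limma 3.58.1, the 6 cKO libraries alone, the replicate number as a block, a Y-linked covariate, a looser threshold and leaving out each library. Robust estimation off, removal of a transcript-length trend per library, and leaving out cKO DMαKG replicates 1 and 3 together (DMαKG replicate 2 alone) were added after seeing the data. Coordinates and promoters come from RefSeq on GRCm38.p6, and 17901 gene IDs matched.

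Genes were named by a rule: Tkt and 6 Treg genes; up to 8 protein-coding genes per direction by smallest p, with groups apart and a group mean reaching 5 CPM; the 4 of smallest p per direction of the interaction; the first 3 tested members of each list; and the genes called in cKO over WT with vehicle. Predicted genes (named Gm or Rik) were counted but not named among the genes of smallest p, and interaction genes also needed a group mean of 5 CPM. Chosen after their values were seen were Stat2, Irf9, Tigit, Entpd1, Cd274, Lag3, Jmjd1c, Jmjd6, Keap1, Pcna and Aurka, and those so marked in the text. The comparison, the 47 gene lists and the rule were chosen with earlier results of these data known, and no list was tested as a set. Some genes are not reported here.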

Additional observations from a re-analysis of the deposited data

Results flagged for a closer look

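Groups of 3 libraries are too small for a test of single outlying libraries. Ncoa7 and Cxcr6 were the named genes whose cKO DMαKG libraries all lay on one side of the cKO vehicle libraries while their WT DMαKG libraries all lay on the other side of the WT vehicle libraries. For Ncoa7 the interaction was -0.79 on the log2 scale. For Cxcr6 it was 1.20, from 7.25, 6.06 and 7.00 CPM in cKO DMαKG Tregs and 3.14, 5.49 and 5.93 CPM in cKO vehicle Tregs, and from 7.32, 10.8 and 11.4 CPM in WT DMαKG Tregs and 15.4, 12.2 and 21.2 CPM in WT vehicle Tregs. Both had an edgeR adjusted p of 0.955 for the interaction, so neither difference passed in edgeR. Both had also been called in cKO over WT with vehicle, a comparison that uses the same vehicle libraries.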

How the results depend on the processing

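The 95 genes followed over 25 alternatives kept the direction of their fold change in 2375 of 2375 values, and 135 of these values passed an adjusted threshold. The looser threshold reuses the fold changes of the reported fit. Robust estimation off and leaving out a WT library keep the same cKO libraries. Many of the genes were also chosen by a small p or by groups apart in those libraries. The full agreement is therefore partly set by the alternatives and by the choice of genes. Of 1128 list medians 1053 stayed within 1 SD of the reported one. The SD was that of the list's mean log2 CPM between libraries within the cKO groups, so lists that varied more were allowed more. For mitosis the median ran from 0.19 to 1.42. Settings that keep the same cKO libraries count here too, so this agreement is also partly set by the alternatives. Counts of genes called moved from the 0 of the reported fit. Without a low-count filter 4 were called (3 higher, H1f3, Gm3512 and Haspin, and 1 lower, Fam177a), and the same 4 at an adjusted p below 0.1 (3 and 1). DESeq2 called 389 (140 and 249) and voom 450 (222 and 228), each with 1 gene, Ncoa7, in the interaction. On the 6 cKO libraries alone 4 were called (2 higher, Arrdc3 and H1f3, and 2 lower, the interferon-inducible GTPase genes Irgm2 and Gm12250), and an interaction cannot be fitted there. Leaving out single libraries gave 0 to 137 calls (0 to 42 higher, 0 to 95 lower) and 0 in the interaction: 137 without WT DMαKG replicate 3, 10 (8 and 2) without cKO vehicle replicate 2, and 1, H1f3, without WT vehicle replicate 3 or replicate 4. The causes were not tested. Other scalings, a filter of 1 CPM in 3 libraries, robust estimation off and removal of the length trend called 0, with smallest adjusted p-values of 0.0598 to 0.109. Of the replicate numbers, 2 and 3 occur with both treatments, and same-numbered cKO libraries had correlations of 0.22 and 0.02 in their deviations from the group means. Pairs with different numbers had correlations between -0.19 and 0.09. The labels give no batch, and whether same-numbered libraries share more than a number was not tested. With the replicate block 0 genes were called by edgeR (1296 at an unadjusted p below 0.05, smallest adjusted p 0.493). With the Y-linked covariate the smallest adjusted p was 0.922, and with DMαKG replicate 2 alone, a fit that assumes this library varies like the other groups, 0.731.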

Other observations

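Rora, which encodes a nuclear receptor of Th17 cells and tissue lymphocytes and was chosen after its values were seen, stood at 186, 208 and 248 CPM in cKO DMαKG Tregs and 122, 118 and 67.2 CPM in cKO vehicle Tregs, without overlap (log2 fold change 1.07, edgeR adjusted p = 0.156, DESeq2 0.0136, voom 0.061). Th17 genes had a median of 0.16 in cKO, with 7 of 10 higher, and of -0.18 in WT. The cKO median was 0.02 without DMαKG replicate 3, 0.37 without DMαKG replicate 1 and 0.41 with DMαKG replicate 2 alone. Genes of ATF4 and the unfolded protein response had a median of 0.22 (16 of 22 higher) in cKO, and of 0.14 with DMαKG replicate 2 alone. Genes of chemokine receptors and homing had a median of 0.11 (14 of 24 higher). Genes of interleukin-2, STAT5 and SOCS signalling had a median of -0.12 (5 of 14 higher), which was 0.06 without DMαKG replicate 3 and 0.13 with DMαKG replicate 2 alone.

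The other lists had medians near 0 in cKO Tregs. The median was -0.01 for Th1, -0.05 for Th2 and 0.07 for Tfh genes, -0.04 for T cell receptor signalling, -0.04 for MYC targets and ribosome biogenesis, -0.08 for heat shock proteins, 0.02 for serine and one-carbon metabolism, -0.04 for cholesterol and fatty acid synthesis and -0.01 for activation markers of conventional CD4 T cells. Of 21 p53 targets 11 were higher and 10 lower. Of 4 stromal and endothelial markers 3 were higher (median 0.23), with summed levels of 167 to 188 CPM in cKO DMαKG Tregs and 143 to 177 CPM in cKO vehicle Tregs.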
